A study of Mus musculus with 6 samples.

Results

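The transcription factor genes of the trophectoderm were compared between a Hira-null mouse embryonic stem (ES) cell clone and its wild-type parental line. The genes are Cdx2, Eomes, Elf5, Tfap2a, Tfap2c, Gata2, Gata3, Tead4, Ascl2 and Hand1. They were taken by name, as every probe set whose platform annotation gives 1 of these symbols alone, which found all 10 genes with 1 probe set each among 35557 probe sets for 19938 named genes. The Hira-null arrays come from the clone Cl34, genotype Hira-/-, and the wild-type (WT) arrays from the parental line w9.5, with 3 arrays labelled as biological replicates for each line. Both lines were undifferentiated ES cells grown in medium with serum and the leukaemia inhibitory factor supplement ESGRO, and no drug or other allele is given. Which part of Hira was deleted is not given, and 1 clone stands for the genotype, so loss of Hira and other differences between clone and parent cannot be told apart. Cells were collected over a range of confluence, which no label ties to an array. The labels call the replicates biological and say no more, so the p-values reflect array-to-array spread, part of which may be technical.

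The trophectoderm is the outer epithelium of the blastocyst, which makes the trophoblast of the placenta. In the outer cells of the mouse morula, TEAD4 acts with the coactivator YAP, which Hippo signalling keeps out of the nucleus in inner cells, and together with GATA3 and TFAP2C it turns on Cdx2. CDX2 and OCT4 (Pou5f1) oppose each other, and EOMES, ELF5 and TFAP2C then hold trophoblast stem cells in their state. ES cells derive from the inner cell mass, and these genes are known to be silent or weak in them, apart from Tead4 and Tfap2c, which ES cells also express.

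Cdx2, Gata3, Gata2 and Eomes are among the genes compared below, and their proximal promoters are printed to show what lies before their starts. The sequences are those of RefSeq on GRCm38.p6, where 7 of the 10 genes had an entry, with 10 starts between them (Tfap2c, Tead4 and Hand1 were not matched). Each shows the 250 bases before a start, 5′ to 3′ on the strand of the gene. For Gata2 the second of its listed starts is shown. Capitals mark matches on either strand to the AP-2 motif GCCNNNGGC, the TEAD motif GGAATG or the GATA motif AGATAA.
Cdx2, chr5:147307250-147307499, minus strand: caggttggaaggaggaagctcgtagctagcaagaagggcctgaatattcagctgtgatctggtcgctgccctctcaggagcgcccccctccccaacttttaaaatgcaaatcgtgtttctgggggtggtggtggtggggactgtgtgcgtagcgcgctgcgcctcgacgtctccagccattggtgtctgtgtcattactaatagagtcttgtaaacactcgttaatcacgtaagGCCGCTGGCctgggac
Gata3, chr2:9878601-9878850, minus strand: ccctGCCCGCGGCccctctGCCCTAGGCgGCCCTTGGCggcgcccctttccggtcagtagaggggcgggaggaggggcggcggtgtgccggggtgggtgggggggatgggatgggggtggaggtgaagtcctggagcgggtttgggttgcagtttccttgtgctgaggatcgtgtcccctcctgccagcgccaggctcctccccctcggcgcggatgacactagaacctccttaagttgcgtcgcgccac
Gata2, chr6:88198414-88198663, plus strand: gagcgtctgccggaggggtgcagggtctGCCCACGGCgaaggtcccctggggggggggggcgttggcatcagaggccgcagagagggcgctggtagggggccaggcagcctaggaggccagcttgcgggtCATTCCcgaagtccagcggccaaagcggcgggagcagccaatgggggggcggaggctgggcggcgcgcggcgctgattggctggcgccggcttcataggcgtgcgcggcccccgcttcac
Eomes, chr9:118477939-118478188, plus strand: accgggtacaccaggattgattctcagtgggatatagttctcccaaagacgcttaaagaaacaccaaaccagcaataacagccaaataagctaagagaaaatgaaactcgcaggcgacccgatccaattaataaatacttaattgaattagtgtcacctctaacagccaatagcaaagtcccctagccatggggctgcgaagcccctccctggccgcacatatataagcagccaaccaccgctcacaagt
The AP-2 motif, bound by proteins such as TFAP2A and TFAP2C, was found in 3 of the 10 promoters of these genes and in 13.7% of 32851 promoters of the same length. Gata3 held 3 matches that do not overlap, 238, 223 and 213 bases before its start. Cdx2 held 1 match, 8 bases before its start, and the Gata2 promoter shown held 1. The Gata2 promoter not shown held 0 matches to the AP-2, TEAD and GATA motifs. The TEAD motif was found in 2 of 10, which are the Gata2 promoter shown and 1 of the Elf5 promoters, and in 12.6% of all promoters. The GATA motif was found in 0 of 10 and in 9.99% of all promoters. A match is a run of letters and not a measured site. The G and C content of the 10 promoters ran from 46.4% for Eomes to 74.0% for the Gata2 promoter shown, against a median of 52.4% over all promoters.

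Values below are deposited log2 expression values, and differences are Hira-null minus WT on that scale, from limma fitted across the 25142 probe sets that passed a filter on low values (at least 3 of 6 arrays above 3.78). Errors are the SD of 3 arrays, or the fitted standard error (SE) and 95% interval. Array medians lay between 4.93 and 5.02. The Hira probe set read 7.40, 7.05 and 6.81 in Hira-null arrays, against 7.49, 7.86 and 7.83 in WT arrays, a difference of -0.64 (SE 0.19) that did not pass the test (limma, adjusted p = 0.352). Hira-null replicate 3 stood apart, at 65.6 on a principal component that held 41.7% of the variance, against -32.0 to 1.95 for the other arrays. Pou5f1, the OCT4 gene that defines ES cells, read 11.56, 11.58 and 11.35 in Hira-null arrays and 10.91, 11.33 and 11.45 in WT arrays.

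No trophectoderm transcription factor gene passed the test between the lines. Of the 10 genes, 9 passed the filter on low values, and Elf5 did not. Among the 9, limma called 0, with adjusted p from 0.519 to 0.986, where 0.00398% of all probe sets were called. At an unadjusted p under 0.05 there were also 0 of 9, where 10.1% of all probe sets lay. The values of the lines did not overlap for 1 of 9, Tead4, against 15.3% of all probe sets. The 9 differences had a median of 0.04, where the median over all probe sets was 0.0033. Of the 9, 6 lay within 0.1 of 0, from -0.053 to 0.05. As deviations from the mean of each gene over the 6 arrays, the medians of the 9 genes were -0.095, 0.04 and 0.25 in Hira-null and -0.09, -0.15 and -0.0017 in WT arrays, so the lines overlapped. In these bulk samples a few cells with much of a transcript and many cells with little of it cannot be told apart. The 95% intervals lay within 1 log2 unit of 0 for 7 of the 9 genes, and within 0.5 for 4 of them. A change of 2-fold in the array values was thus outside the interval for those 7 but not for Gata2 and Eomes. Among the 7, Cdx2, Gata3 and Tfap2a read low, under 4.99 on every array. Whether values that low show the full size of a change in transcript was not tested.

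**Figure D1:**
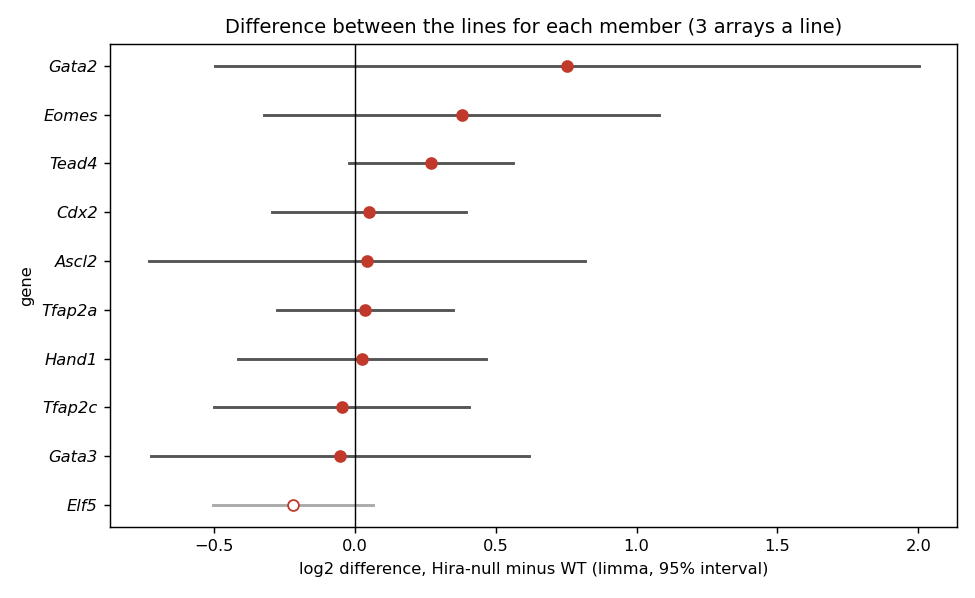
Log2 difference, Hira-null minus WT, for each gene (points) with its 95% interval from limma (lines), 3 arrays a line. The open point is Elf5, which did not pass the filter and was fitted among all probe sets. All 10 intervals hold 0, and that of Gata2 is the widest, from 0.709-fold to 4.01-fold.

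Tead4, the TEAD family factor that starts the trophectoderm programme, had the smallest p of the 10 genes. It read 7.28, 7.11 and 7.30 in Hira-null arrays, against 7.01, 6.87 and 7.00 in WT arrays. All 3 Hira-null arrays lay above all 3 WT arrays, by 0.10 at the closest, although 7.09% of all probe sets show the same order. The means were 7.23 ± 0.10 in Hira-null and 6.96 ± 0.08 in WT arrays, a difference of 0.27 (SE 0.12), or 1.21-fold, which did not pass the test (limma, adjusted p = 0.519).

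The other TEAD genes, which encode factors that bind the same motif, had differences of similar size, and none passed the test. Tead2 read 8.80, 8.78 and 8.99 in Hira-null arrays and 8.86, 8.42 and 8.49 in WT arrays, a difference of 0.27 (SE 0.16). Tead3 stood at 0.22 (SE 0.14), with 5.86, 5.96 and 5.97 in Hira-null arrays and 5.91, 5.56 and 5.67 in WT arrays. For both genes WT replicate 1 lay within the Hira-null values and the other WT arrays lay below them. Tead1, named here after its values were seen, has a pair of probe sets with differences of 0.22 and 0.35, and its values overlap between the lines at both. The lines thus separate at Tead4 and overlap at the other 3 TEAD genes.

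**Figure D2:**
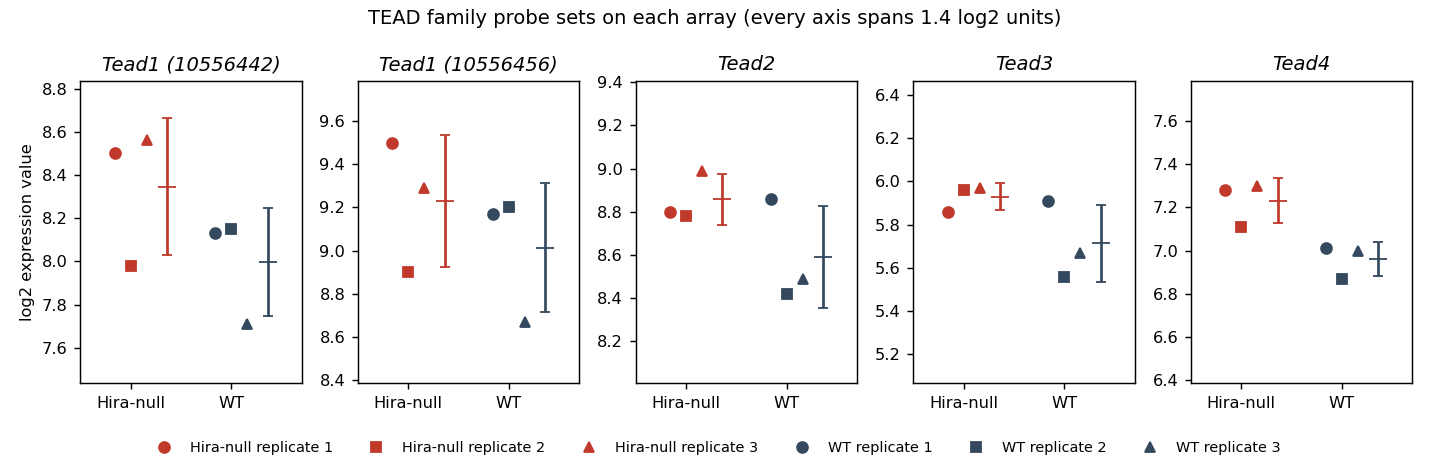
Log2 expression values of the TEAD family on each array, with the mean and SD of each line (n = 3) to the right of its points. Tead4 separates the lines, at 7.11 to 7.30 in Hira-null and 6.87 to 7.01 in WT arrays, and the other 4 probe sets overlap.

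Of 16 listed TEAD and Hippo pathway genes, 15 were measured and limma called 0 (0% of the 15199 named genes tested, 1 probe set a gene). At an unadjusted p under 0.05 there were also 0, against 10.5% of those genes. The differences were 6 above and 9 below 0, with a median of -0.08 beside -0.01 over all genes. Sav1, the scaffold of the Hippo kinases, read 7.36, 7.21 and 6.94 in Hira-null arrays and 7.54, 7.52 and 7.37 in WT arrays, a difference of -0.31 (SE 0.15). Nf2, the upstream Hippo regulator merlin, stood at -0.21 (SE 0.18). It lies on chromosome 11, where the median over 1351 genes was -0.24.

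By the likeness of values over the 6 arrays, the genes closest to Tead4 were Osbpl2, an oxysterol-binding protein gene (Pearson r = 0.995), the solute carrier gene Slc35e3 (r = 0.991) and Jph1, which encodes junctophilin (r = 0.989). These were the highest among the named genes that passed the filter, over only 6 arrays that share their normalization, and they are given as a description. Since they were picked for this likeness, their shared order of arrays adds no support. All 3 separated the lines as Tead4 does, with differences of 0.43, 0.35 and 0.42. None passed the test (limma, adjusted p = 0.387 to 0.465).

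Cdx2, the homeobox gene that marks the trophectoderm and is needed for its maintenance, differed between the lines by less than the spread of the arrays. It read 4.43, 4.58 and 4.64 in Hira-null arrays, against 4.32, 4.48 and 4.70 in WT arrays. The WT values enclose the Hira-null values. The difference was 0.05 (SE 0.15), with an interval from -0.29 to 0.39, or 0.816-fold to 1.31-fold.

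Eomes, a T-box gene needed for trophoblast stem cells and later for the primitive streak, varied more between arrays of a line than between the lines. It read 5.82, 5.74 and 4.92 in Hira-null arrays, against 4.77, 5.04 and 5.53 in WT arrays. Hira-null replicates 1 and 2 were the highest of the 6, and Hira-null replicate 3 and WT replicate 1 the lowest. The means were 5.49 ± 0.50 in Hira-null and 5.11 ± 0.39 in WT arrays, a difference of 0.38 (SE 0.30; limma, adjusted p = 0.750). Without Hira-null replicate 3 the difference was 0.67 (limma, adjusted p = 0.446), and its unadjusted p then lay under 0.05. Since Eomes is also a mesoderm and streak gene, those markers stand beside it. Of 9 measured streak and mesoderm markers 0 were called, 4 lay above and 5 below 0, and their median was -0.02. The marker medians per array were -0.115 to 0.045 in Hira-null and -0.065 to 0.13 in WT arrays. The marker with the smallest p was the VEGF receptor gene Kdr, at -0.31 (SE 0.18; limma, adjusted p = 0.634).

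Elf5, an ETS factor gene that is methylated in ES cells and open in trophoblast stem cells, lay under the filter on every array. It read 3.30, 3.27 and 3.15 in Hira-null arrays, against 3.31, 3.56 and 3.51 in WT arrays. The lines did not overlap, but the gap was 0.01, the step to which values were rounded. In a fit over all 35557 probe sets the difference was -0.22 (SE 0.12; limma, adjusted p = 0.664).

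Tfap2c, the AP-2 gene with the leading role in trophoblast and also a germ cell and ES cell factor, differed by -0.05 (SE 0.19). It read 6.94, 6.88 and 7.32 in Hira-null arrays, against 7.40, 6.92 and 6.96 in WT arrays. In each line 1 array was high, Hira-null replicate 3 and WT replicate 1, and the other 4 lay between 6.88 and 6.96. Its paralogue Tfap2a, which acts in trophoblast and in surface ectoderm and neural crest, read 3.91, 4.11 and 3.89 in Hira-null arrays and 3.81, 4.04 and 3.95 in WT arrays. The Tfap2a values lay just above the filter, the lines overlapped, and the difference was 0.04 (SE 0.13).

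Gata3, a zinc finger gene that acts beside Tead4 in the early trophectoderm, read 4.65, 4.03 and 4.89 in Hira-null arrays, against 4.96, 4.61 and 4.16 in WT arrays. Both lines spanned nearly the same range, and the difference was -0.05 (SE 0.28), with an interval from -0.72 to 0.62. The highest values were again those of Hira-null replicate 3 and WT replicate 1.

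Gata2, which with Gata3 drives placental hormone genes in trophoblast giant cells, had the largest difference of the 10 genes, and it rests on 1 array. It read 5.17, 5.43 and 7.28 in Hira-null arrays, against 5.49, 4.95 and 5.18 in WT arrays. Hira-null replicate 3 lay 1.79 above the next array, WT replicate 1, and the other Hira-null arrays lay within the WT range. The means were 5.96 ± 1.15 in Hira-null and 5.21 ± 0.27 in WT arrays, a difference of 0.75 (SE 0.53), or 1.69-fold, which did not pass the test (limma, adjusted p = 0.711). Without Hira-null replicate 3 the difference was 0.09 (limma, adjusted p = 0.917). A gap of at least 1.79 between this array and the other 5 was found at 18 of 25142 probe sets (0.0716%), Gata2 among them. WT replicate 1 stood as far above the others at 3 probe sets, and the remaining 4 arrays at 0. The named genes most like Gata2 over the 6 arrays, looked up after its values were seen, were D430042O09Rik (Pearson r = 0.998), the glucose transporter gene Slc2a4 (r = 0.997) and Ly6k (r = 0.997). Picked for this likeness, they share the high reading in Hira-null replicate 3. They read 6.53, 6.59 and 6.51 there, against 5.38 to 5.69 on the other 5 arrays.

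**Figure D3:**
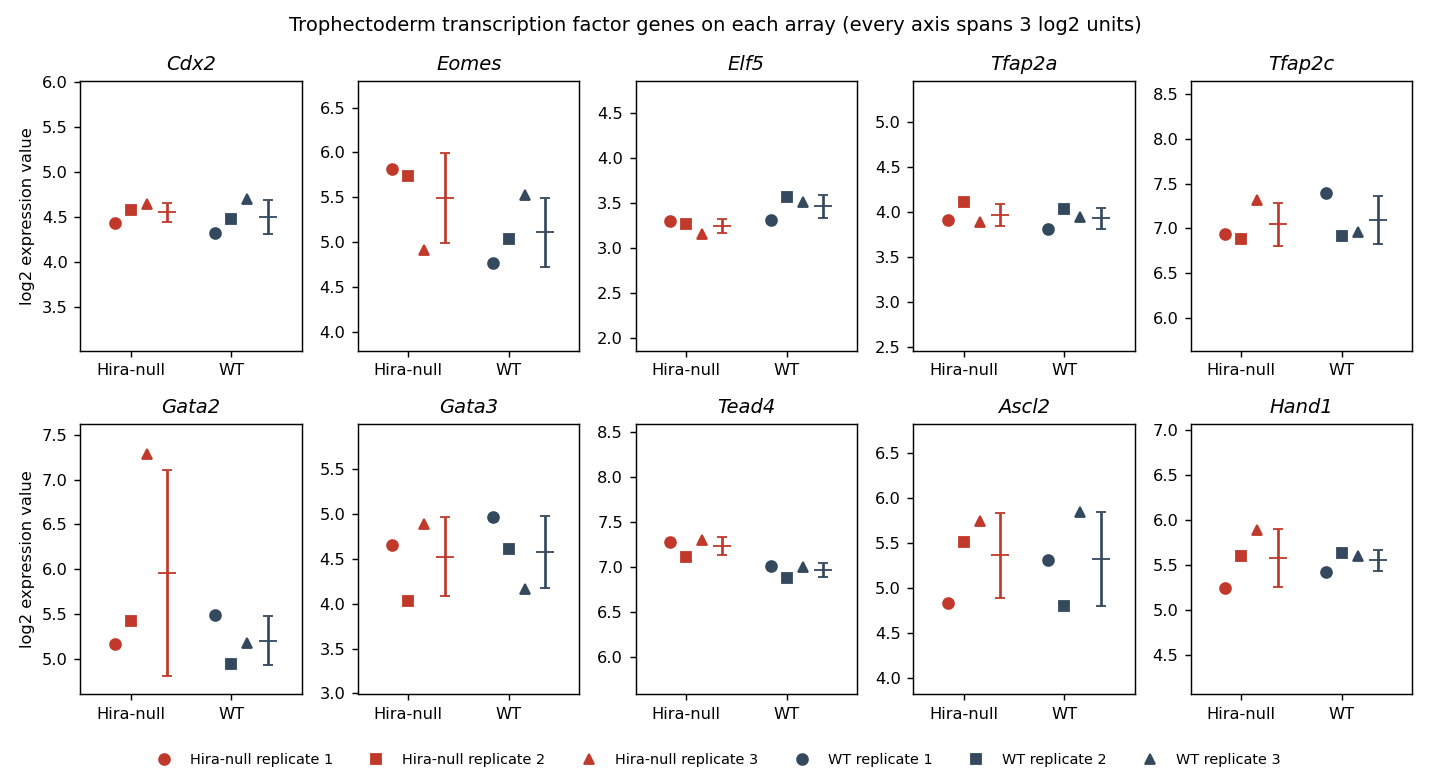
Log2 expression values of the 10 genes on each array, with the mean and SD of each line (n = 3) to the right of its points. Hira-null replicate 3 is apart at Gata2, at 7.28 against 4.95 to 5.49 on the other 5 arrays, and the lines separate at Tead4.

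Ascl2 and Hand1 are basic helix-loop-helix genes that act later, Ascl2 in the spongiotrophoblast and Hand1 in giant cells and also in mesoderm. Ascl2 read 4.84, 5.51 and 5.75 in Hira-null arrays, against 5.32, 4.80 and 5.85 in WT arrays. The arrays of each line were spread over about 1 log2 unit, and the difference was 0.04 (SE 0.33). Hand1 read 5.24, 5.60 and 5.89 in Hira-null arrays and 5.42, 5.63 and 5.60 in WT arrays, so that the Hira-null values enclose the WT values. The Hand1 difference was 0.03 (SE 0.19), with an interval from -0.41 to 0.47. Hand1 lies on chromosome 11, where 1115 of 1351 genes had lower values in the Hira-null arrays, with a median of -0.24, which the interval of Hand1 holds.

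Hira-null replicate 3 and WT replicate 1 lay together at 1 end of the values for 5 of these genes. Both lay above the other 4 arrays at Tfap2c, Gata2 and Gata3, which is 3 of 9 genes against 13.0% of all probe sets. Both lay below the other 4 at Eomes and Tfap2a, 2 of 9 against 12.9%, though at Tfap2a the margin was 0.02. This pattern was noticed in the values and carries no test. It takes 1 array from each line.

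Genes of the trophectoderm epithelium showed the same arrays. Of 11 measured genes of this list, 8 were highest in this pair, against 13.0% of all probe sets. Among the 8 are the simple epithelial keratin genes Krt8, Krt18, Krt7 and Krt19, the tight junction gene Cldn4 and the water channel gene Aqp3. These 6 are named after their values were seen. Krt18 read 7.31, 7.19 and 10.20 in Hira-null arrays, against 9.22, 7.63 and 7.48 in WT arrays. Krt8 read 8.02, 7.84 and 10.24 in Hira-null arrays, against 9.51, 8.51 and 8.23 in WT arrays. Aqp3 read 7.84, 7.75 and 11.29 in Hira-null arrays, against 8.51, 7.76 and 7.90 in WT arrays, so its high reading, like that of Gata2, is mainly that of Hira-null replicate 3. The list medians per array, as such deviations, were -0.67, -0.35 and 0.82 in Hira-null and 0.39, -0.50 and -0.50 in WT arrays. Fibroblast markers, of which 7 of 10 passed the filter, showed this pair on top in part. The pair was highest at 3 of the 7, Col1a1, Fn1 and Pdgfrb, against the same 13.0% of all probe sets. Vim was lowest in Hira-null replicate 3. Thy1 was highest in Hira-null replicate 3, at 7.17, but read 6.09, 6.09 and 5.93 in WT arrays, all below every Hira-null array. Their medians per array were -0.24, -0.21 and 0.17 in Hira-null and 0.71, -0.10 and -0.10 in WT arrays. Postn, Dcn and Lum lay under the filter. Limma called 0 of the 7, with Thy1 at 0.76 (SE 0.19) and Vim at -0.61 (SE 0.23). Without overlap between the lines, 1 of the 7 was higher in Hira-null arrays, Thy1, and 2 were lower, Vim and Col1a2. Among named genes 7.8% and 9.55% show those orders. The part of fibroblasts or of epithelial cells in the Gata2, Gata3, Tfap2c and Eomes values was not tested.

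**Figure D4:**
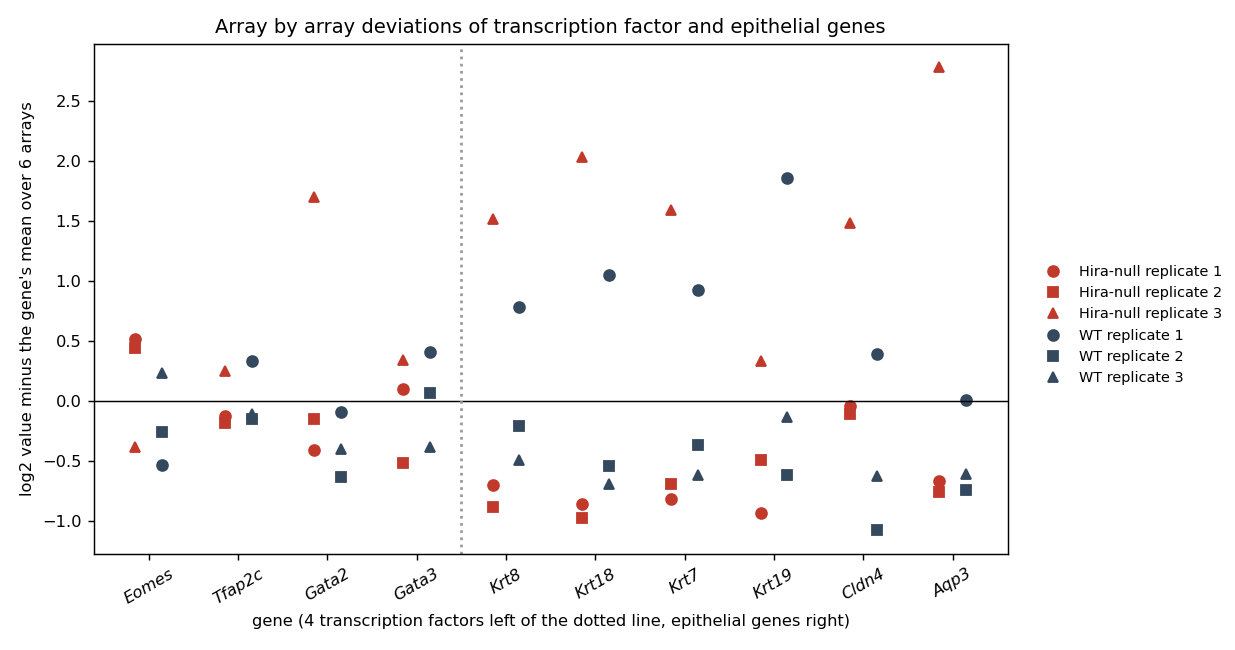
Deviation of the log2 value on each array from the mean of the gene over the 6 arrays, for 4 transcription factor genes (left of the dotted line) and 6 epithelial genes (right). Hira-null replicate 3 (red triangles) and WT replicate 1 (dark circles) are the highest at all but Eomes, where they are the lowest. The genes drawn were chosen after their values were seen. Of the epithelial list, Atp1b1 and Dsp, which show this pattern, and Cldn6, Cdh3 and Dab2, which do not, are left out.

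Between the lines, 0 of 11 epithelial genes were called by limma. At an unadjusted p under 0.05, 1 of 11 was higher and 2 were lower in Hira-null arrays, where 4.17% and 6.29% of named genes lay. Cldn6 stood at 1.03 (SE 0.31), with 8.64, 8.52 and 9.04 in Hira-null arrays, against 8.39, 7.33 and 7.40 in WT arrays (limma, adjusted p = 0.349). The lines did not overlap for Cldn6, a claudin of early epithelia, or, with lower values in Hira-null arrays, for Cdh3 and Dab2. These are 1 of 11 higher and 2 of 11 lower, where 7.8% and 9.55% of named genes show those orders. The placental cadherin gene Cdh3 stood at -0.47 (SE 0.13) and the endocytic adaptor gene Dab2, also an endoderm marker, at -0.83 (SE 0.33), with adjusted p of 0.318 and 0.472 (limma). Cdh3 lies on chromosome 8, where the median over 809 genes was -0.27. The desmoplakin gene Dsp stood at 0.43 (SE 0.25).

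Among 12 genes of trophoblast stem cells, 8 lay above and 4 below 0, and limma called 0. The median was 0.18, beside -0.01 over all genes, and the differences ran from -0.56 to 1.08. The lines did not overlap for 3 of 12, all higher in Hira-null arrays, where 7.8% of named genes show that order. Plet1, a surface protein gene of early trophoblast, read 6.87, 6.56 and 7.18 in Hira-null arrays, against 6.50, 6.04 and 6.20 in WT arrays, a difference of 0.62 (SE 0.20; limma, adjusted p = 0.384). Bmp8b, a bone morphogenetic protein gene, stood at 0.67 (SE 0.25; limma, adjusted p = 0.439). It read 5.56, 5.43 and 6.35 in Hira-null arrays, against 5.22, 5.18 and 4.93 in WT arrays. Without Hira-null replicate 3 the Bmp8b difference was 0.385 (limma, adjusted p = 0.482). Pcsk6, a proprotein convertase gene, stood at 0.30 (SE 0.13). Plet1, Bmp8b and Pcsk6 were each highest in Hira-null replicate 3. Fgfr2, the receptor through which fibroblast growth factor maintains trophoblast stem cells, read 5.18, 4.72 and 5.04 in Hira-null arrays, against 5.68, 5.91 and 5.04 in WT arrays. The Fgfr2 difference of -0.56 (SE 0.25) did not pass the test (limma, adjusted p = 0.508), and the lines overlapped.

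Genes of differentiated trophoblast were measured in part. Of 19 listed, 10 passed the filter, 5 (Tpbpa, Ctsq, Plac1, Pparg and Hsd3b6) lay under it in at least 4 arrays, and 4 were not analysed here. Of the 10, 1 lay above and 9 below 0, with a median of -0.14, and limma called 0. Syna, the syncytin gene of the syncytiotrophoblast, read 4.31, 4.76 and 4.63 in Hira-null arrays, against 5.03, 5.06 and 5.17 in WT arrays, a difference of -0.52 (SE 0.15; limma, adjusted p = 0.344). Plac8 read 4.10, 4.08 and 3.61 in Hira-null arrays, against 4.46, 4.87 and 5.86 in WT arrays, a difference of -1.13 (SE 0.35; limma, adjusted p = 0.371). These are the 2 of 10 at an unadjusted p under 0.05 and the 2 whose lines did not overlap, where 6.29% and 9.55% of named genes are lower by those rules. Ly6e stood at -0.33 (SE 0.23). Dlx3, a homeobox gene of the labyrinth, stood at 0.22 (SE 0.20).

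None of the ES cell genes that hold back the trophoblast programme passed the test. Limma called 0 of 10, with 5 above and 5 below 0, a median of -0.005 and a range from -0.11 to 0.30. Pou5f1, whose loss turns mouse ES cells to trophoblast and raises Cdx2, stood at 0.27 (SE 0.17), and Sall4, a zinc finger gene that maintains Pou5f1, at 0.30 (SE 0.20). Ring1, a Polycomb gene, stood at 0.14 (SE 0.13) and Uhrf1, which guides maintenance DNA methylation, at -0.08 (SE 0.15). The medians per array were 0.20, 0.13 and -0.20 in Hira-null and -0.09, 0.02 and 0.04 in WT arrays, lowest in Hira-null replicate 3 and WT replicate 1. Of the genes named, Sall4 and Uhrf1 were lowest in this pair, and Pou5f1 and Ring1 were not. Of all probe sets, 12.9% were lowest in this pair. The order of the medians was noticed in the values and carries no test.

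**Figure D5:**
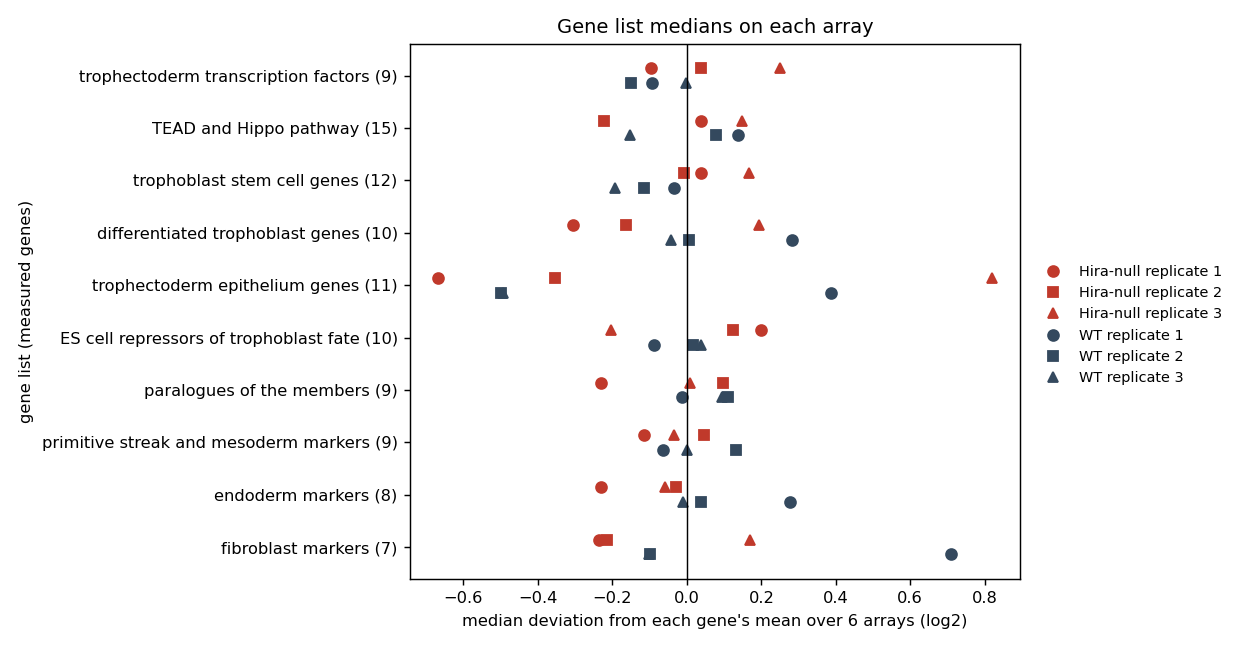
Median, over the measured genes of each list, of the deviation from the mean of each gene over the 6 arrays, for every array (number of genes in brackets). The lines overlap for 8 of the 10 lists. For trophoblast stem cell genes the Hira-null medians of -0.01 to 0.17 lie above the WT medians of -0.19 to -0.04. For endoderm markers the Hira-null medians of -0.23 to -0.03 lie below the WT medians of -0.01 to 0.28. The gaps are narrow, with nearest medians of -0.007 and -0.036 for the stem cell genes and -0.03 and -0.011 for the endoderm markers. They carry no test. Of single probe sets 15.3% do not overlap, but that is not the share for list medians, which was not computed. Epithelial genes are spread most, from -0.67 to 0.82.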

How the data were processed

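Total RNA of 6 ES cell cultures was extracted with Trizol and hybridised to Affymetrix Mouse Gene 1.0 ST arrays, per the labels' protocols. The authors deposited log2 expression values made with GCRMA, per the submitters' processing notes, which give no version. That the scale is log2 follows from the range of the values, 1.14 to 14.03. The build behind them is not given in the sources used here. Such normalization would hide a change shared by most genes.

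Of 35557 probe sets, 21789 carry 1 symbol, 1621 several and 12147 none. Current symbols were looked up by Entrez identifier in a GRCm38.p6 gene table, which matched 21698. Chromosomes come from that table. Probe sets with at least 3 of 6 arrays above 3.78, the 30th percentile, were fitted with limma 3.58.1 (lmFit and eBayes) in R 4.3.3. The fit had no covariates and tests were two-sided. P-values of the 25142 probe sets were adjusted by Benjamini-Hochberg, with a threshold of 0.05. Lists use the probe set with the highest mean for a gene. The number of arrays limits the precision (median SE 0.17). The procedure was tested on simulated data with independent noise on each array, which did not model an array that stands apart.

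All members were named, and up to 4 genes of each other list with the smallest unadjusted p. Members and lists were chosen with earlier results of these data known. Alternatives were other filters, scalings, variance settings, array weights, a replicate block and leaving out arrays.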

Additional observations from a re-analysis of the deposited data

How the results depend on the processing

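Across the alternatives tried, no trophectoderm gene was called (limma, lowest adjusted p = 0.446). Those genes numbered 1 at an unadjusted p under 0.05 with no filter (Tead4) and 0 to 1 when arrays were left out singly (Eomes, without Hira-null replicate 3). Their median, 0.04 in the main fit, was 0.005 to 0.195 with single arrays left out. It changed sign with arrayWeights, to -0.028, and with Hira-null replicate 3 and WT replicate 1 both left out, to -0.03. Over all probe sets the number called was 2 with the stricter filter (50th percentile, 4.99), 2 with median centring, 5 with arrayWeights and 0 with Hira-null replicate 3 and WT replicate 1 both left out. It was 0 to 41 with single arrays left out, the 41 being without Hira-null replicate 2 and 0 without any other array. Same-numbered arrays did not deviate together (r = -0.34, 0.17 and -0.10), and of the Hira-null arrays replicate 2 alone correlated best with the WT array of its own number. With the replicate block 0 probe sets were called. Some differences changed sign, among them that of Ly6e, which stood at -0.33. With arrayWeights Cdx2 stood at -0.028, Ascl2 at -0.12 and Hand1 at -0.054. With Hira-null replicate 3 and WT replicate 1 both left out Cdx2 stood at -0.085, Ascl2 at -0.15, Hand1 at -0.195, Ly6e at 0.035 and Uhrf1 at 0.005. With single arrays left out Cdx2 ran from -0.04 to 0.15, Tfap2a from -0.033 to 0.09, Tfap2c from -0.18 to 0.11, Gata3 from -0.26 to 0.19, Ascl2 from -0.22 to 0.31, Hand1 from -0.13 to 0.195 and Uhrf1 from -0.16 to 0.055. Leaving out arrays lowers their number, and for the other changes the cause was not tested. Tead4 stayed between 0.22 and 0.33, Gata2 between 0.09 and 1.15 and Eomes between 0.21 and 0.67. The Tead4 difference was not called in any setting (limma, lowest adjusted p = 0.469).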

Other observations

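Paralogues of the trophectoderm factors were measured for 9 of 15 listed genes, and limma called 0 of them. Gata6, a factor gene of primitive endoderm, read 6.06, 5.85 and 6.14 in Hira-null arrays, against 6.91, 6.36 and 6.42 in WT arrays, a difference of -0.55 (SE 0.18; limma, adjusted p = 0.394). Gata5, which acts in endoderm and heart, stood at -0.35 (SE 0.14), with low values of 4.21 to 4.88. Without overlap between the lines, 2 of the 9 were lower in Hira-null arrays, Gata6 and Gata5, and 1 was higher, Cdx1. Among named genes 9.55% and 7.8% show those orders. Cdx1, a caudal-type homeobox gene of the posterior embryo, read 6.01, 6.08 and 6.43 in Hira-null arrays, against 5.71, 5.90 and 5.71 in WT arrays, a difference of 0.40 (SE 0.15; limma, adjusted p = 0.451), whereas Cdx2 stood at 0.05. The difference between Cdx1 and Cdx2 was not tested. Tfap2e, an AP-2 gene, stood at 0.22 (SE 0.15). Of 8 measured endoderm markers, 2 lay above and 6 below 0, with a median of -0.21 and 0 called. Sox17 stood at -0.23 (SE 0.15) and Hnf4a at -0.25 (SE 0.19), and Afp and Ttr lay under the filter.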
